A study of Arabidopsis thaliana with 32 samples.

Results

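The data described here are the deposited comparison of 8 day old with 4 day old roots of Arabidopsis thaliana plants of the ecotype WS (Wassilewskija), grown on the ground as controls for a spaceflight experiment. The members are all rows of the authors' deposited table for these 2 groups, which holds every locus that passed the Cuffdiff threshold, a q-value up to 0.05. There are 1104 such loci, of 18017 tested in this comparison. The 8 deposited tables of the series hold 9013 rows, in which a locus called in several tables is counted each time. The labels and the series design name the comparison of ages within an ecotype and a growth condition as one of the aims.

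The 8 day group, GC-WS-8d, and the 4 day group, GC-WS-4d, each hold 4 RNA-seq libraries of light-grown plants that the labels name by the cultivar WS and by no transgene or mutation, out of 32 libraries over 8 groups. Both groups grew on vertical plates of solid medium in a plant growth unit inside a chamber at the Kennedy Space Center that repeated the conditions of the space station with a delay of 48 h. Seedlings of both ages were preserved in RNAlater, and whole roots were dissected from them later. The quiescent centre marker WOX5 and the root hair genes described below were above 0 FPKM at both ages, and root markers that were not called are not listed. One library at 8 days was made from 2 to 3 roots, and one at 4 days from 5 to 8 roots, so the age of the plants and the number of pooled roots cannot be told apart. All libraries started from 10 ng of total RNA, amplified as full-length cDNA over 8 PCR cycles.

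A root that has just left the seed lives partly on seed reserves, and its length is mostly tip, elongating cells and young root hairs. As it ages, a growing share of it is mature root, in which the endodermis is sealed by Casparian strips and later by suberin, the vascular tissue thickens, and lateral roots start. Uptake of iron, phosphate and water is carried by transporters in the outer cell layers, many of them made at a rate set by the supply of the nutrient. In RNA from whole roots, fewer cells of a type and less RNA per cell cannot be told apart.

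Levels are the authors' FPKM, fragments counted per transcript length and library size, of which the deposited table gives 1 pooled value per group and none per library. Changes are log2 ratios of the level at 8 days over that at 4 days, so a positive one means higher at 8 days. The error written after a change is the one implied by the authors' test statistic, the change divided by that statistic. It is a wide error: of the 1070 called loci above 0 FPKM at both ages, 538 had a change under 1.96 implied errors, since the authors' p-values are smaller than a normal test on that statistic would give. The smallest q-value in the table is 0.00217, shared by the 415 loci at the smallest p-value, 5e-05.

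In ground WS roots 514 loci were higher at 8 days, 2.85% of those tested, and 590 were lower, 3.27% of those tested, by the authors' q-value. Shares of gene lists and families below are over all their members, tested or not. They are not on the same base as shares of loci tested. The median change was 0.86 among the loci that rose and -0.99 among those that fell and were above 0 FPKM at both ages. Over all called loci above 0 FPKM at both ages the median was -0.45. The authors' deposited table lists 32 of the lower loci at 0 FPKM at 8 days and 2 of the higher loci at 0 FPKM at 4 days, and no fold change is given for these. A single annotated gene was named on 1015 loci, several genes on 71 and none on 18. The library kit does not mark strand, so a gene and an overlapping or antisense neighbour were not told apart.

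Among single genes above 0 FPKM at both ages and at least 5 FPKM at the higher one, the 12 largest increases began with a thioredoxin and 2 microRNA precursors and included 2 MADS-box genes at ranks 9 and 11. TH8 (AT1G69880), an h-type thioredoxin, had 108 FPKM at 8 days and 6.27 FPKM at 4 days in the authors' deposited table, a log2 change of 4.11 ± 0.89. AT5G44400, a berberine bridge enzyme-like FAD-binding protein, had 32.1 FPKM at 8 days and 3.17 FPKM at 4 days (3.34 ± 0.57). LTP5 (AT3G51600), a lipid transfer protein, had 101 FPKM at 8 days and 14.3 FPKM at 4 days (2.82 ± 0.48). The authors' deposited table gives AGL42 (AT5G62165) 56.3 FPKM at 8 days and 8.02 FPKM at 4 days (2.81 ± 0.54). SOC1 (AGL20, AT2G45660), which promotes flowering in the shoot apex, had 17.7 FPKM at 8 days and 2.72 FPKM at 4 days (2.70 ± 0.68). Both MADS-box genes were also higher at 8 days in flight WS roots, at 4.56 and 3.37 on the log2 scale, and in ground Col-0 roots, at 3.50 and 2.497.

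GolS4 (AT1G60470), a galactinol synthase, rose by 3.00 ± 0.81 to 10.4 FPKM at 8 days, against 1.30 FPKM at 4 days in the authors' deposited table. AT1G65500, annotated as an uncharacterized protein, had 416 FPKM at 8 days and 48.8 FPKM at 4 days (3.09 ± 0.36), the highest level among these 12 genes. The other members of this group in the deposited table were AT1G52800, an oxygenase-family gene, with a change of 3.30 ± 1.26, AT4G22730, a leucine-rich repeat kinase-family gene, with 2.81 ± 1.11, and AT5G17700, a MATE efflux-family gene, with 2.64 ± 0.70. The 2 precursors, MIR158b with 51.6 FPKM at 8 days and 3.12 FPKM at 4 days and MIR160b with 36.8 FPKM at 8 days and 3.57 FPKM at 4 days, are annotated at 85 and 89 nt. The effect of so short a feature on FPKM was not tested. The mature form of the miR160 family targets auxin response factors.

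**Figure D1:**
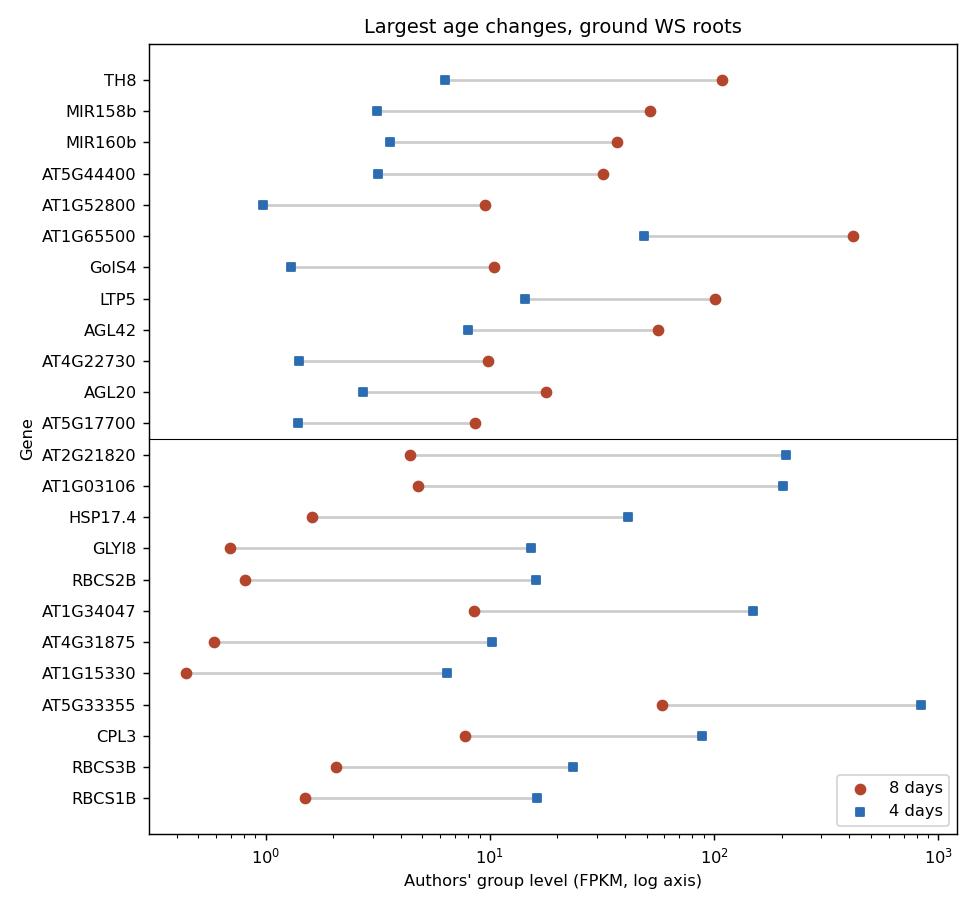
Authors' group levels (FPKM, log axis) of the 24 single genes with the largest change in ground WS roots, circles for 8 days and squares for 4 days, with 12 higher at 8 days above the line and 12 lower at 8 days under it. The level pairs lie farthest apart for AT2G21820, at 4.42 FPKM at 8 days and 208 FPKM at 4 days.

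Among single genes above 0 FPKM at both ages and at least 5 FPKM at the higher one, the 12 largest decreases included genes of seed maturation, Rubisco, defensin-like peptides and epidermal patterning. Loci at 0 FPKM at 8 days and loci of several genes are described further on. AT2G21820, annotated as a seed maturation protein, had 4.42 FPKM at 8 days and 208 FPKM at 4 days in the authors' deposited table, a change of -5.56 ± 1.07. AT1G03106, which encodes an uncharacterized protein, had 4.78 FPKM at 8 days and 202 FPKM at 4 days (-5.40 ± 0.60). HSP17.4 (AT3G46230), a small heat shock protein, had 1.61 FPKM at 8 days and 41.5 FPKM at 4 days (-4.69 ± 1.51). All 3 genes were lower at 8 days in the flight WS table too, at -6.94, -6.99 and -5.81, and the differences from ground roots were not significant over the genes called in both tables.

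Among defensin-like genes, the authors' deposited table gives AT5G33355 58.5 FPKM at 8 days and 835 FPKM at 4 days (-3.84 ± 0.42), and AT1G34047 8.47 FPKM at 8 days and 149 FPKM at 4 days (-4.14 ± 0.61). CPL3 (AT4G01060), a single-repeat MYB of the CAPRICE family that acts in trichome and root hair patterning, had 7.77 FPKM at 8 days and 88.7 FPKM at 4 days (-3.51 ± 0.81). The rest of the 12 were GLYI8 at -4.46 ± 1.35, AT4G31875 at -4.12 ± 1.98, AT1G15330 at -3.87 ± 1.34 and 3 Rubisco small subunit genes described with the green tissue list.

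Of the single genes called, the highest levels at 8 days were those of AT3G11120, a ribosomal protein L41, with 4315 FPKM at 8 days and 3166 FPKM at 4 days (0.45 ± 0.25), and FSD1 (AT4G25100), the iron superoxide dismutase, with 2196 FPKM at 8 days and 1535 FPKM at 4 days (0.52 ± 0.28). AT5G05960, of the lipid-transfer and albumin superfamily, had 2131 FPKM at 8 days and 1382 FPKM at 4 days, AT1G15270, a TMA7 translation-associated protein, had 2103 FPKM at 8 days and 1619 FPKM at 4 days, and AT3G07230, a wound-responsive protein-like gene, had 1847 FPKM at 8 days and 1202 FPKM at 4 days in the authors' deposited table. All 5 rose by less than 2-fold. At 4 days AT1G15410, of the aspartate-glutamate racemase family, AT2G43150, a proline-rich extensin-like gene, and AT4G22212, a defensin-like gene, were also among the highest 5. They had 444, 876 and 952 FPKM at 8 days and 2217, 1697 and 1660 FPKM at 4 days, and all 3 fell.

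Of the 26 members of the seed storage and late embryo list 7 were called on a locus of their own, all lower (26.9%, against 3.27% of all loci tested) and all listed at 0 FPKM at 8 days. ABI5, a transcription factor of the abscisic acid response in seeds, was called lower on a locus shared with AT2G36290, with 158 FPKM at 8 days and 207 FPKM at 4 days in the authors' deposited table (-0.39 ± 0.25). At 4 days the authors' deposited table gives PAP85 56.4 FPKM, the albumins SESA2 38.4, SESA3 9.92 and SESA1 2.55 FPKM, and the oil body proteins OLEO4 26.6 FPKM and CLO1 (ATS1), a caleosin, 14.0 FPKM. ECP63, an embryonic protein, had 8.76 FPKM at 4 days. Outside the list, and picked after their values were seen, AGL67 had 32.3 FPKM, the dehydrin LEA 29.0 FPKM, SOM, a regulator of light-dependent germination, 13.0 FPKM and SMP1, annotated as a seed maturation protein, 9.74 FPKM at 4 days, each with 0 FPKM at 8 days in the deposited table. The 32 loci at 0 FPKM at 8 days had a median of 13.4 FPKM at 4 days. Of the 31 that hold a single gene, 18 were also called in the flight WS age table, all 18 of them at 0 FPKM at 8 days there, and none was called in the ground Col-0 age table. How much seed coat or other non-root tissue the 4 day samples held was not tested. MLS, malate synthase of the glyoxylate cycle that turns seed oil into sugar, fell to 1.63 FPKM at 8 days, against 14.3 FPKM at 4 days (-3.13 ± 0.67).

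On the photosynthesis and green tissue list 6 of 55 members were lower (10.9%) and none higher. Their median change was -2.40. The authors' deposited table gives RBCS2B, a Rubisco small subunit gene, 0.81 FPKM at 8 days and 16.0 FPKM at 4 days (-4.31 ± 1.25). RBCS3B had 2.06 FPKM at 8 days and 23.4 FPKM at 4 days (-3.504 ± 1.00), and RBCS1B had 1.49 FPKM at 8 days and 16.3 FPKM at 4 days (-3.45 ± 1.14). RBCS1A, the member with the highest level, had 94.3 FPKM at 8 days and 184 FPKM at 4 days (-0.97 ± 0.28). RCA, Rubisco activase, had 7.67 FPKM at 8 days and 19.6 FPKM at 4 days, and PSBQ-2, a photosystem II subunit, had 7.13 FPKM at 8 days and 13.9 FPKM at 4 days. No chloroplast-encoded locus was listed. In flight WS roots 12 members fell, where 3.42% of all loci tested fell, and none rose, where 2.65% rose. In ground Col-0 roots 6 fell, where 5.54% of all loci tested fell, and 1 rose, where 5.69% rose. The part of shoot tissue in these samples was not tested. On the light signalling list 1 of 21 fell (4.76%, against 3.27% of all loci tested). It was PIF1, a repressor of seed germination in the dark, with 0.62 FPKM at 8 days and 3.03 FPKM at 4 days (-2.29 ± 1.12).

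Of the 55 members of the iron, zinc and copper list 9 fell and none rose (16.4%, against 3.27% of all loci tested), with a median change of -0.90. At a q-value of 0.01 or less 6 fell, and with at least a 2-fold change 4 fell. The regulator FIT (named FRU in the annotation, AT2G28160), which switches on iron uptake in the epidermis, had 22.3 FPKM at 8 days and 35.7 FPKM at 4 days in the authors' deposited table (-0.68 ± 0.35). FRD3 (AT3G08040), which loads citrate into the xylem for iron transport, had 10.6 FPKM at 8 days and 38.3 FPKM at 4 days (-1.85 ± 0.36). NAS4, a nicotianamine synthase, had 13.9 FPKM at 8 days and 41.5 FPKM at 4 days (-1.58 ± 0.48), and NAS2 had 9.25 FPKM at 8 days and 16.6 FPKM at 4 days (-0.84 ± 0.53). BTS, a ubiquitin ligase that restrains the iron response, fell to 2.00 FPKM at 8 days, against 5.17 FPKM at 4 days (-1.37 ± 0.48).

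The vacuolar iron transporter-like genes fell too, VTL5 to 122 FPKM at 8 days against 245 FPKM at 4 days and VTL1 to 15.3 FPKM at 8 days against 28.6 FPKM at 4 days. MTPA2, a vacuolar metal transporter, changed by -0.89 ± 0.48, and AHA2, the main proton pump of the root epidermis, had 692 FPKM at 8 days and 1224 FPKM at 4 days in the authors' deposited table. IRT1, the main iron importer of the epidermis, was called on a locus that also holds AT4G19650, at 11.9 FPKM at 8 days and 161 FPKM at 4 days (-3.76 ± 0.66). The bHLH regulators BHLH38 and BHLH39 share a locus, at 21.3 FPKM at 8 days and 57.3 FPKM at 4 days (-1.43 ± 0.47). These shared loci are not in the count of 9. Flight WS roots had 3 members lower and 1 higher at 8 days, where 3.42% of all loci tested fell and 2.65% rose. In ground Col-0 roots 13 fell and 2 rose, where 5.54% of all loci tested fell and 5.69% rose.

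On the phosphate starvation list 7 of 29 members were lower (24.1%, against 3.27% of all loci tested) and none higher. Their median change was -1.06. With at least a 2-fold change 4 fell. SPX1, a phosphate sensor that restrains the starvation response and is itself induced by it, had 26.5 FPKM at 8 days and 87.7 FPKM at 4 days in the authors' deposited table (-1.73 ± 0.34). The phosphate importer PHT1;4 had 8.62 FPKM at 8 days and 28.3 FPKM at 4 days (-1.71 ± 0.70). PHO1;H1, of the xylem-loading exporters, had 5.31 FPKM at 8 days and 15.4 FPKM at 4 days (-1.53 ± 0.41). IPS1, a non-coding RNA that sequesters miR399, had 37.7 FPKM at 8 days and 78.7 FPKM at 4 days (-1.06 ± 0.67). PS2, a phosphatase, changed by -0.81 ± 0.41, and SQD2, which makes the sulfolipid that can stand in for phospholipids, by -0.80 ± 0.44. PPCK1, a kinase of PEP carboxylase, was the least changed at -0.63 ± 0.30. PHO1 and PHT1;2 were called lower on loci shared with neighbours, at -1.74 ± 0.71 and -1.04 ± 0.53. On this list flight WS roots had 4 members lower and none higher, where 3.42% of all loci tested fell and 2.65% rose. In ground Col-0 roots 9 fell and 1 rose, where 5.54% of all loci tested fell and 5.69% rose.

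On the nitrogen list 1 of 48 members rose and 1 fell (2.08% each, against 2.85% and 3.27% of all loci tested). NIA2, a nitrate reductase, had 35.3 FPKM at 8 days and 23.6 FPKM at 4 days in the authors' deposited table, and NRT2.1, a high-affinity nitrate transporter, had 1.86 FPKM at 8 days and 4.41 FPKM at 4 days. On the aquaporin list 5 of 23 members were lower (21.7%) and none higher, with a median change of -0.77, and 2 fell by at least 2-fold. PIP2;3, a plasma membrane water channel, had 54.6 FPKM at 8 days and 117 FPKM at 4 days (-1.10 ± 0.29). PIP1;2 had 424 FPKM at 8 days and 724 FPKM at 4 days (-0.77 ± 0.25). PIP2;2 had 363 FPKM at 8 days and 580.3 FPKM at 4 days (-0.68 ± 0.25). PIP2;7 had 510.4 FPKM at 8 days and 705 FPKM at 4 days (-0.47 ± 0.29). TIP1;1, the main channel of the vacuolar membrane, was on 2 loci in the deposited table, both lower, at -1.55 ± 0.87 and -0.64 ± 0.36. PIP2;2 and PIP2;3 are close copies, and how reads were split between them was not tested.

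**Figure D2:**
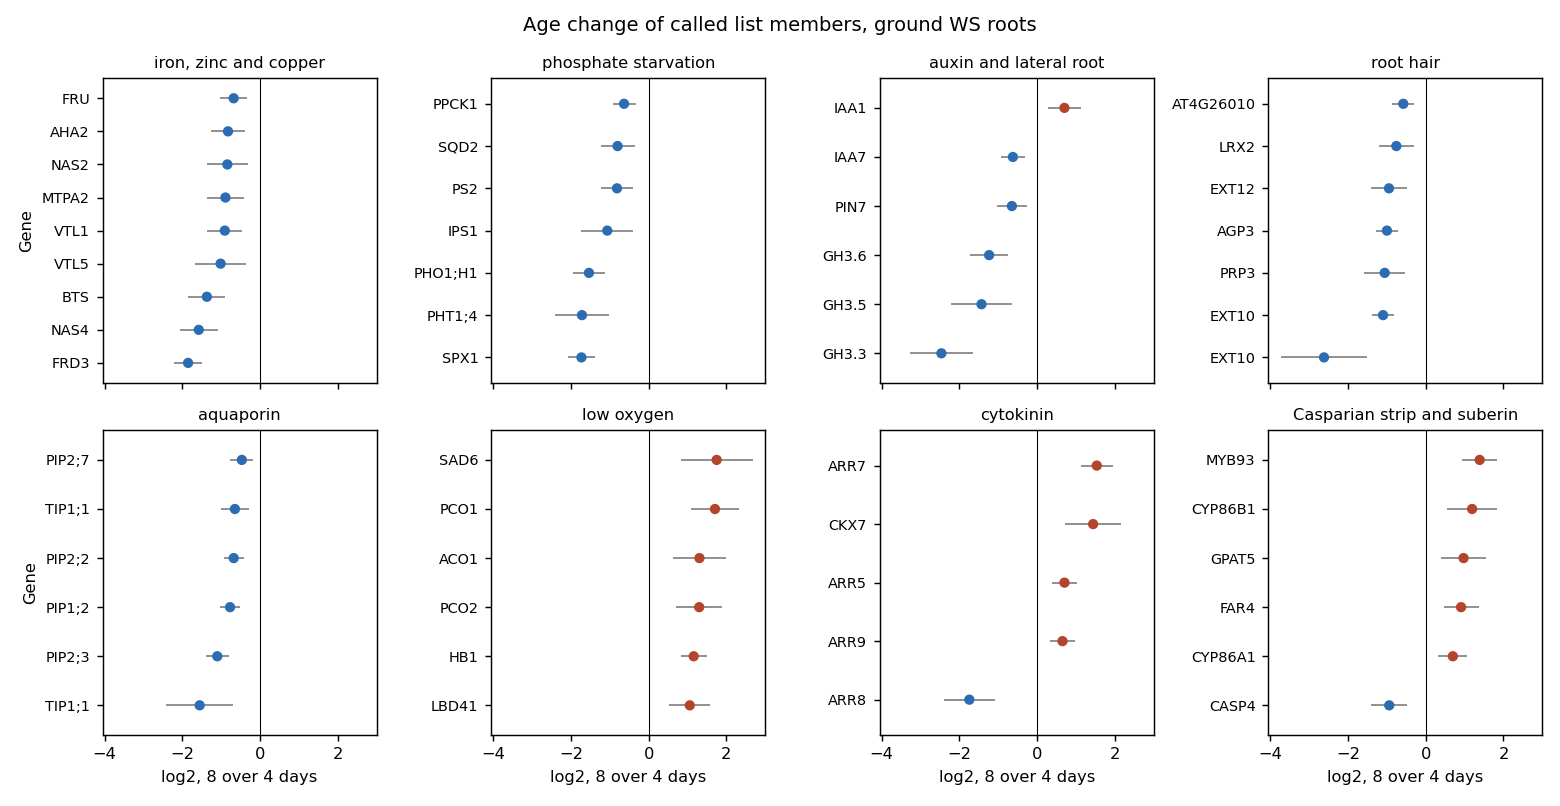
Log2 change of the level at 8 days over that at 4 days for the called members of 8 gene lists in ground WS roots that are reported here, points for the authors' pooled values and bars for 1 implied error on either side. Every called member lies left of 0 in the iron, phosphate, root hair and aquaporin lists and right of 0 in the low oxygen list. A gene on 2 loci appears on 2 lines.

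On the root hair list 6 of 39 members were lower (15.4%, against 3.27% of all loci tested) and none higher. Their median change was -0.97. With at least a 2-fold change 2 fell. The cell wall proteins AGP3, with 215 FPKM at 8 days and 430.2 FPKM at 4 days (-0.999 ± 0.28), PRP3, with 60.9 FPKM at 8 days and 127 FPKM at 4 days (-1.06 ± 0.52), and EXT12, with 61.0 FPKM at 8 days and 118 FPKM at 4 days (-0.95 ± 0.45), were among them in the authors' deposited table. EXT10, an extensin on 2 loci, changed by -2.62 ± 1.11 on one and -1.10 ± 0.29 on the other. LRX2, which shapes the hair wall, changed by -0.76 ± 0.45, and the peroxidase-family gene AT4G26010 by -0.58 ± 0.28. Extensins are repetitive and alike, and how reads were shared among them was not tested. At 8 days in flight WS roots 1 member was lower and 1 higher, where 3.42% of all loci tested fell and 2.65% rose. In ground Col-0 roots 13 fell and 2 rose, where 5.54% of all loci tested fell and 5.69% rose.

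Enzymes that loosen or remodel the wall changed in both directions. Of 36 expansin and xyloglucan enzyme genes 6 rose (16.7%, against 2.85% of all loci tested) and 3 fell, with a median change of 0.72, and 3 rose and 1 fell by at least 2-fold. XTH9 had 254 FPKM at 8 days and 97.2 FPKM at 4 days in the authors' deposited table (1.39 ± 0.28). EXPA6 had 83.9 FPKM at 8 days and 36.8 FPKM at 4 days (1.19 ± 0.30). EXPA15 had 296 FPKM at 8 days and 139 FPKM at 4 days (1.09 ± 0.25). XTH32 and XTH18 rose by 0.76 ± 0.30 and 0.72 ± 0.34, and EXPB3 by 0.62 ± 0.31. XTH21 had 52.7 FPKM at 8 days and 118 FPKM at 4 days (-1.17 ± 0.30), with XTH15 at -0.88 ± 0.40 and XTH16 at -0.79 ± 0.33. Class III peroxidases, which cross-link walls and make reactive oxygen, had 7 of 73 members higher (9.59%) and 5 lower (6.85%). Their median change was 0.46, and of all loci tested 2.85% rose and 3.27% fell. The farthest apart were AT2G18150, with 53.0 FPKM at 8 days and 9.09 FPKM at 4 days (2.54 ± 0.61), and AT5G64110, with 0.98 FPKM at 8 days and 3.82 FPKM at 4 days (-1.96 ± 0.98). AT5G06730 rose by 1.40 ± 0.73, AT2G35380 by 1.31 ± 0.36 and Prx37 by 1.08 ± 0.34, and AT5G64120 changed by -1.39 ± 0.58.

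Of 27 members of the Casparian strip and suberin list 5 rose (18.5%, against 2.85% of all loci tested) and 1 fell. Their median change was 0.94. The 5 became 2 at a q-value of 0.01 or less, 2 with at least a 2-fold change and 1 with a pseudocount of 1 FPKM and at least a 2-fold change. MYB93, an endodermal regulator that limits lateral root development, had 29.4 FPKM at 8 days and 11.2 FPKM at 4 days in the authors' deposited table (1.39 ± 0.46). The other 4 are enzymes that hydroxylate, esterify or reduce the fatty chains of suberin. CYP86B1 had 6.04 FPKM at 8 days and 2.64 FPKM at 4 days (1.19 ± 0.65), and CYP86A1 had 28.6 FPKM at 8 days and 17.6 FPKM at 4 days (0.70 ± 0.37). GPAT5 had 7.40 FPKM at 8 days and 3.77 FPKM at 4 days (0.97 ± 0.58). FAR4 had 19.5 FPKM at 8 days and 10.4 FPKM at 4 days (0.91 ± 0.45). CASP4, a scaffold protein of the Casparian strip, had 17.5 FPKM at 8 days and 33.5 FPKM at 4 days (-0.94 ± 0.47). FAR5 was called higher on a locus shared with a neighbour, at 0.76 ± 0.41.

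On the xylem list 1 of 30 rose (3.33%, against 2.85% of all loci tested), ACL5, a thermospermine synthase that delays xylem cell death, with 133 FPKM at 8 days and 70.2 FPKM at 4 days in the authors' deposited table (0.92 ± 0.32), and on the phloem list 1 of 13 (7.69%), PP2-A1, a phloem lectin, with 31.2 FPKM at 8 days and 14.7 FPKM at 4 days (1.08 ± 0.43). On the root meristem list 2 of 20 fell (10.0%, against 3.27%) and 1 rose (5.00%). WOX5, the marker of the quiescent centre, had 14.1 FPKM at 8 days and 27.3 FPKM at 4 days (-0.95 ± 0.50), SCR, which specifies the endodermis and the quiescent centre, had 7.87 FPKM at 8 days and 13.3 FPKM at 4 days (-0.75 ± 0.38), and RGF2, a peptide that maintains the meristem, had 85.0 FPKM at 8 days and 53.6 FPKM at 4 days (0.66 ± 0.36). Of 42 cell cycle genes 1 rose and 1 fell (2.38% each, against 2.85% and 3.27% of all loci tested). CYCA2;3 rose by 0.71 ± 0.40 and AT5G10390, a histone H3.1, changed by -0.47 ± 0.31. No member of the 47 of the cytosolic ribosome list or the 16 of the phenylpropanoid list was called. In flight WS roots 21 ribosome members fell, where 3.42% of all loci tested fell. The difference between the 2 growth conditions could not be tested for genes called in only 1 table.

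On the list of genes induced by low oxygen 6 of 21 members were higher (28.6%, against 2.85% of all loci tested) and none lower, with a median change of 1.31. At a q-value of 0.01 or less 3 rose, and with at least a 2-fold change all 6 did. The oxygen-sensing cysteine oxidases PCO1, with 13.1 FPKM at 8 days and 3.99 FPKM at 4 days (1.71 ± 0.62), and PCO2, with 11.0 FPKM at 8 days and 4.45 FPKM at 4 days (1.30 ± 0.59), mark group VII ERF factors for breakdown. HB1, a non-symbiotic haemoglobin, had 89.5 FPKM at 8 days and 40.0 FPKM at 4 days in the authors' deposited table (1.16 ± 0.33). SAD6 (FTM1), a stearoyl-ACP desaturase, had 4.09 FPKM at 8 days and 1.21 FPKM at 4 days (1.75 ± 0.93). ACO1, of the ACC oxidases that make ethylene, had 79.6 FPKM at 8 days and 32.1 FPKM at 4 days (1.31 ± 0.69), and LBD41, a transcription factor of the core hypoxia response, had 11.8 FPKM at 8 days and 5.64 FPKM at 4 days (1.06 ± 0.53). Members of the list that rose in flight WS roots numbered 4, with 1 lower, where 2.65% of all loci tested rose and 3.42% fell. In ground Col-0 roots 8 rose and none fell, where 5.69% of all loci tested rose and 5.54% fell. SAD6 rose by 4.14 ± 0.87 in flight WS roots and by 1.75 ± 0.93 in ground WS roots, a difference that was not significant over the genes called in both tables.

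On the auxin and lateral root list 6 of 44 fell (13.6%, against 3.27% of all loci tested) and 1 rose. The other 37 were not called on a locus of their own. Under a stricter q-value limit of 0.01, 3 fell, and with at least a 2-fold change 4 fell. The GH3 enzymes join auxin to amino acids and are themselves induced by auxin. GH3.3 had 0.92 FPKM at 8 days and 5.05 FPKM at 4 days in the authors' deposited table (-2.47 ± 0.82). GH3.5 had 6.55 FPKM at 8 days and 17.7 FPKM at 4 days (-1.43 ± 0.78). GH3.6 had 4.23 FPKM at 8 days and 9.96 FPKM at 4 days (-1.24 ± 0.48). The efflux carrier PIN7, with 8.36 FPKM at 8 days and 13.1 FPKM at 4 days (-0.65 ± 0.39), fell too, as did the repressor IAA7 (-0.62 ± 0.32). IAA1 rose, with 31.9 FPKM at 8 days and 19.6 FPKM at 4 days in the authors' deposited table (0.70 ± 0.43).

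On the cytokinin list 4 of 32 rose (12.5%, against 2.85% of all loci tested) and 1 fell. Their median change was 0.70, and the other 27 were not called on a locus of their own. With at least a 2-fold change 2 rose and 1 fell. Type-A response regulators damp the cytokinin response that induces them, and the called ones did not all move one way. ARR7 had 57.1 FPKM at 8 days and 19.7 FPKM at 4 days (1.53 ± 0.41), ARR5 had 56.4 FPKM at 8 days and 34.7 FPKM at 4 days (0.70 ± 0.31), and ARR9 had 54.5 FPKM at 8 days and 34.7 FPKM at 4 days (0.65 ± 0.31). ARR8 (AT2G41310) fell to 10.8 FPKM at 8 days, against 36.1 FPKM at 4 days in the authors' deposited table (-1.75 ± 0.65). CKX7, a cytosolic cytokinin oxidase, rose by 1.44 ± 0.72. Of 21 genes of gibberellin, ethylene and brassinosteroid 2 rose (9.52%) and 3 fell (14.3%, against 3.27% of all loci tested). With at least a 2-fold change 1 of these rose and none fell. GASA6 rose to 60.5 FPKM at 8 days against 23.2 FPKM at 4 days (1.38 ± 0.46), while the gibberellin synthesis genes GA3OX1 and GA3OX2 changed by -0.91 ± 0.45 and -0.92 ± 0.59 and GASA1 by -0.84 ± 0.55.

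On the root MADS-box list 3 of 15 members rose (20.0%) and 1 fell, with a median change of 1.77. Of all loci tested in ground WS roots 2.85% rose and 3.27% fell. The list members that rose were AGL42 and SOC1, given above, and AGL21, which promotes lateral root growth. AGL21 had 25.7 FPKM at 8 days and 14.5 FPKM at 4 days (0.83 ± 0.42). FLC, the floral repressor that acts on SOC1, fell to 0.57 FPKM at 8 days, against 3.23 FPKM at 4 days in the authors' deposited table (-2.501 ± 1.93). On the same list 7 members rose in flight WS roots and none fell, where 2.65% of all loci tested rose and 3.42% fell. In ground Col-0 roots 6 rose and 1 fell, where 5.69% of all loci tested rose and 5.54% fell.

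The shares in this paragraph stand beside 2.85% of all loci tested that rose and 3.27% that fell. On the heat shock list 2 of 29 members were lower (6.90%), HSP17.4, given above, and HSP90.1. The latter had 5.05 FPKM at 8 days and 16.5 FPKM at 4 days (-1.71 ± 0.44). On the clock list 3 of 30 fell (10.0%) and 1 rose (3.33%), and 1 fell and none rose among genes of at least 5 FPKM. The evening gene FKF1 had 1.00 FPKM at 8 days and 3.29 FPKM at 4 days (-1.72 ± 0.83). GI had 2.03 FPKM at 8 days and 4.25 FPKM at 4 days (-1.07 ± 0.50), and the RNA-binding protein GRP7 changed by -0.44 ± 0.29. The morning gene CCA1 had 4.23 FPKM at 8 days and 1.96 FPKM at 4 days in the authors' deposited table (1.11 ± 0.67). The hour of harvest is not given in the sources used here, and its part was not tested. Of 33 genes of abscisic acid, cold and drought 1 rose (3.03%) and 2 fell (6.06%). KIN2 rose to 1028 FPKM at 8 days against 500.1 FPKM at 4 days (1.04 ± 0.29), while RD22 and RD29A changed by -1.10 ± 0.60 and -1.08 ± 0.64. On the touch and wound list 1 of 18 rose and 1 fell (5.56% each), TCH3, a calmodulin-like protein, at 1.06 ± 0.53 and ZAT10, a stress-responsive zinc finger, at -1.27 ± 0.67.

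Glucosinolate genes had 3 of 39 higher (7.69%), led by FMO GS-OX3, an S-oxygenase, with 11.8 FPKM at 8 days and 3.88 FPKM at 4 days (1.60 ± 0.55), and followed by CYP79B2 at 0.61 ± 0.28 and BCAT3 at 0.40 ± 0.28. Root triterpene genes had 2 of 10 lower (20.0%), MRN1, marneral synthase, at -2.04 ± 0.90 and CYP71A16 at -0.70 ± 0.46. On the sugar list SUC1, a sucrose carrier, had 58.6 FPKM at 8 days and 27.2 FPKM at 4 days (1.11 ± 0.30), and 3 of 30 fell (10.0%), among them DRM2, a dormancy-associated gene, with 46.2 FPKM at 8 days and 204 FPKM at 4 days in the authors' deposited table (-2.15 ± 1.06), STP13 at -0.93 ± 0.47 and BGAL4 at -0.50 ± 0.32. Of 43 genes of glutathione transferases and oxidative stress 2 rose (4.65%) and 3 fell (6.98%). GSTF14 rose on both of its loci (1.21 ± 0.29 and 1.94 ± 0.97) and FSD1 is given above, while CSD2, GSTF8 and UGT74E2 changed by -0.46 ± 0.27, -0.40 ± 0.26 and -1.49 ± 0.67. The jasmonate list had LOX5 lower (-0.91 ± 0.59), 1 of 32 (3.1%). The immune list had EDS1 higher (0.72 ± 0.41), 1 of 23 (4.35%). The flavonoid list had RHM1 lower (-0.61 ± 0.33), 1 of 19 (5.26%). Outside the list, and picked after its values were seen, the flavonol synthase gene FLS3 was higher. It had 125 FPKM at 8 days and 62.0 FPKM at 4 days (1.01 ± 0.28). Of all loci tested 2.85% rose and 3.27% fell.

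Over the 33 lists, which hold 1034 identifiers, 131 were called on a locus of their own, 49 higher and 82 lower at 8 days. Another 16 were on called loci of several genes. Of all loci tested 6.13% were called, 2.85% higher and 3.27% lower. The lists were chosen with earlier results of these data known, so their total is no test. The deposited table lists called loci only, so an identifier that is not listed was either below the authors' testing limits or above their q-value threshold.

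**Figure D3:**
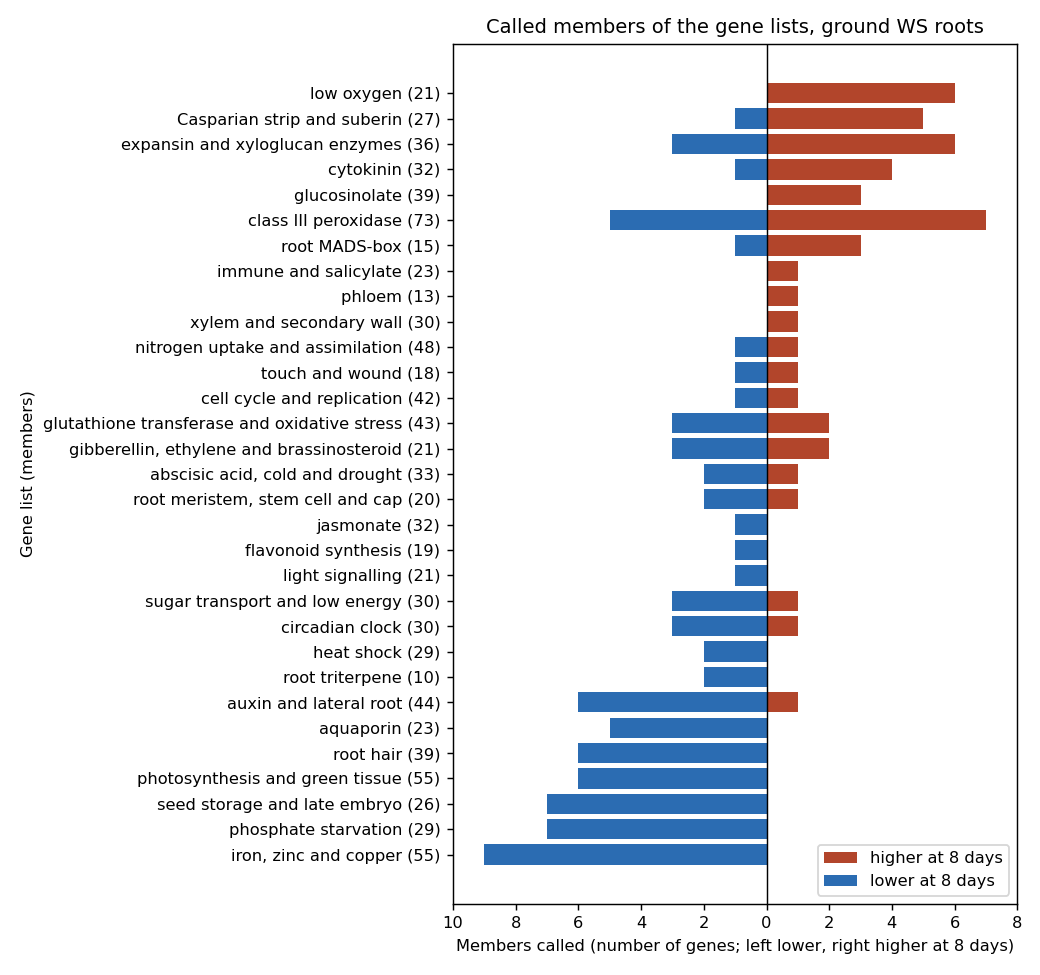
Number of called genes of each list in ground WS roots, higher at 8 days to the right of 0 and lower at 8 days to the left, with the size of the list in brackets; lists without a call are left out. The low oxygen list has 6 higher and none lower, and the iron, zinc and copper list has 9 lower and none higher.

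The direction of the age change went with transcript length. Of called loci whose longest annotated transcript is 4000 nt or more, 1 of 67 was higher at 8 days (1.49%), and of those from 2500 to under 4000 nt 34 of 129 were higher (26.4%). From 800 to under 2500 nt 394 of 724 were higher (54.4%), and under 800 nt 47 of 93 (50.5%). The one long transcript that was higher in the authors' deposited table was that of AT4G36520. In flight WS roots 4 of 29 called loci of 4000 nt or more were higher at 8 days (13.8%), and in ground Col-0 roots 9 of 33 (27.3%). Under 800 nt in flight WS roots 33 of 127 were higher (26.0%), and in ground Col-0 roots 122 of 167 (73.1%). The share for this short class thus differed among the age comparisons.

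Genes behind the long class have roles across the cell. SYD and BRM, the chromatin remodelling ATPases, had 1.01 and 1.97 FPKM at 8 days and 3.56 and 4.93 FPKM at 4 days in the authors' deposited table, with changes of -1.82 ± 0.86 and -1.33 ± 0.77. SPI, a BEACH-domain protein, had 0.73 FPKM at 8 days and 2.85 FPKM at 4 days (-1.97 ± 0.91), and the histone acetyltransferase HAC5 had 0.73 FPKM at 8 days and 2.79 FPKM at 4 days (-1.94 ± 0.82). ACC1, the cytosolic acetyl-CoA carboxylase, changed by -1.11 ± 0.55 and TOC159, a chloroplast import receptor, by -1.31 ± 0.36. The 8 day ground libraries also enter the authors' deposited table of flight over ground at 8 days. There 38 of the 67 long loci were higher in flight and none was lower, with a median of 0.79 on the log2 scale. SYD, BRM and HAC5 were among them, at 1.47 ± 0.70, 1.11 ± 0.72 and 1.67 ± 0.75. All these values share those libraries and are no separate support. Of all 1104 called loci, 342 above 0 FPKM in ground roots at 8 days were also listed in that comparison. The direction of those 342 is not given here. By age in flight WS roots, 20 of the 67 loci were called and 19 were lower at 8 days (median -0.85). Of the 997 genes called once in ground WS roots, 434 were called by age in flight WS roots, with 227 lower in both. BTS, GI and AHA2 named above have transcripts of 4495, 4303 and 3599 nt. RNA integrity per library is not given in the sources used here, and its part was not tested.

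**Figure D4:**
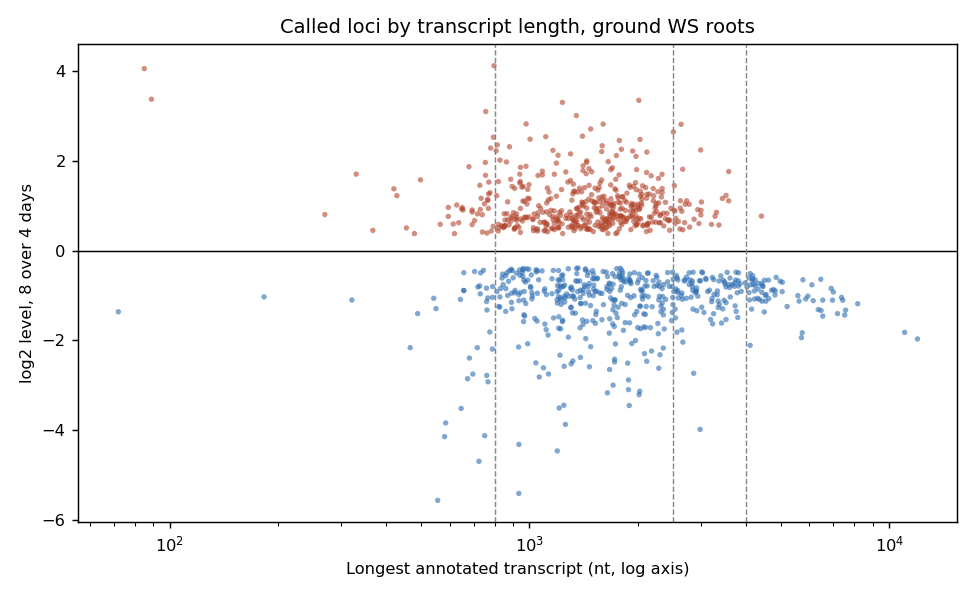
Log2 change of the level at 8 days over that at 4 days of each called locus in ground WS roots against the length of its longest annotated transcript (nt, log axis), with dashed lines at 800, 2500 and 4000 nt. To the right of 4000 nt, 1 of 67 loci lies above 0.

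The called loci on the mitochondrial sequence, which carry no gene name in the deposited table, were all lower at 8 days, 11 of 11. Their median change was -2.08, with a range of -3.59 to -1.33. Among all called loci of ground WS roots 590 of 1104 were lower. How many mitochondrial loci were tested is not known. In flight WS roots 5 mitochondrial loci were called, all lower, with a median of -0.70, where 606 of all 1075 called loci were lower. In ground Col-0 roots 3 were called, all lower, with a median of -0.71, where 1102 of all 2235 called loci were lower. The library kit primes on poly(A) tails, and its part in the mitochondrial values was not tested.

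The age change of ground WS roots was set beside those of flight WS and ground Col-0 roots, which share no library with it. Of the 997 genes called once in ground WS roots, 193 were called in both other age tables, 241 in flight WS alone of the others, 156 in ground Col-0 alone and 407 in neither. In flight WS roots 434 were called (43.5% of 997, and 44.2% of the 983 called there), and 430 of them changed in the same direction, 203 higher and 227 lower. In ground Col-0 roots 349 were called (35.0% of 997, and 16.9% of the 2064 called there), and 335 changed in the same direction, 179 higher and 156 lower. The percent called was 6.13% of loci tested in ground WS roots, 6.08% in flight WS roots and 11.2% in ground Col-0 roots.

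The size of the change was tested gene by gene as the difference of the 2 log2 changes over the root of their summed squared implied errors (two-sided normal test, Benjamini-Hochberg adjustment over each pair of tables). Between ground and flight WS roots the median size of the difference was 0.25 over 415 genes, under the median error of 0.62, and 6 genes differed after adjustment, with adjusted p-values that ran from 0.0018 to 0.048 (n = 415 genes). AT5G33355 fell further in ground roots (-3.84 ± 0.42) than in flight roots (-0.99 ± 0.45), and so did the other defensin-like gene, AT1G34047 (-4.14 ± 0.61 and -1.24 ± 0.46). AT5G38020, of the SAM-dependent methyltransferases, rose by 2.25 ± 0.28 in ground roots and 0.77 ± 0.29 in flight roots, and AT1G65500 rose by 3.09 ± 0.36 and 1.41 ± 0.34. TCH3, whose mRNA responds to touch, had 21.4 FPKM at 8 days and 10.3 FPKM at 4 days in ground roots (1.06 ± 0.53) and 22.5 FPKM at 8 days and 54.0 FPKM at 4 days in flight roots (-1.26 ± 0.42). MIR158b rose in ground roots by 4.05 ± 1.35 and was lower at 8 days in flight roots (-2.78 ± 0.94). The next genes by p-value, AT1G60730, RBCS1A, DI19 and FRD3, did not pass after adjustment. Of the 6 genes AT5G33355, AT1G34047, AT1G65500 and MIR158b have transcripts of 585, 581, 756 and 85 nt, under the 800 nt bound used above. None of the 6 passed when the errors were taken 1.5 times as large.

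Between ground WS and ground Col-0 roots the median size of the difference was 0.28 over 349 genes, under the median error of 0.53, and 2 genes differed after adjustment, with adjusted p-values of 0.012 and 0.046 (n = 349 genes). GASA5, a gibberellin-regulated peptide, rose by 1.97 ± 0.28 in WS roots, with 503 FPKM at 8 days and 128 FPKM at 4 days, and by 0.52 ± 0.21 in Col-0 roots, with 377 FPKM at 8 days and 263 FPKM at 4 days. AT2G04800, which encodes an uncharacterized protein, had 7.57 FPKM at 8 days and 57.4 FPKM at 4 days in WS roots (-2.92 ± 0.95) and 431 FPKM at 8 days and 266 FPKM at 4 days in Col-0 roots (0.70 ± 0.28). The tables of the ecotypes give positions on different sequences and are scaled separately. The other 8 of the 10 genes with the smallest p-values were AT5G01670, EXT4, AT1G13340, AT2G46490, AT1G19540, ANNAT2, GASA6 and CYP71A19, and none passed after adjustment. Neither GASA5 nor AT2G04800 passed with errors 1.5 times as large.

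**Figure D5:**
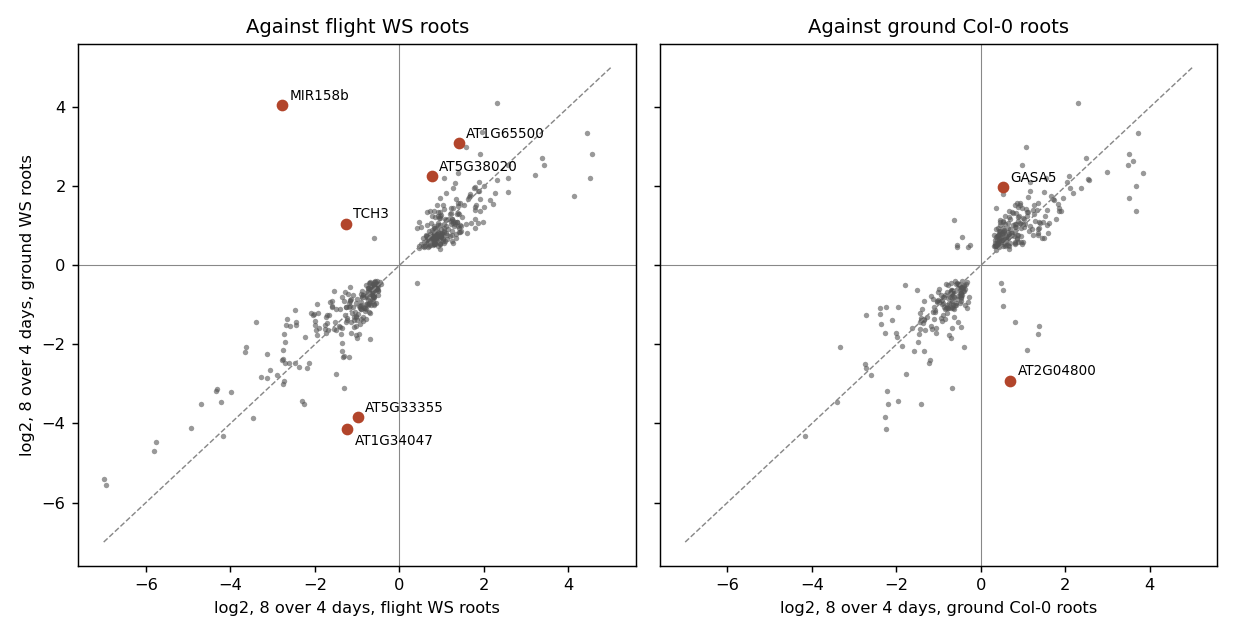
Log2 change of the level at 8 days over that at 4 days in ground WS roots (vertical axis) against that in flight WS roots (left, 415 genes) and ground Col-0 roots (right, 349 genes), for genes called in both tables, with the line of equal change dashed. Large labelled points are the 6 genes on the left and 2 on the right whose changes differed after adjustment.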

How the data were processed

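The authors trimmed reads with Trimmomatic 0.36, aligned them with STAR 2.5.1b and ran Cufflinks and Cuffdiff, per the submitters' processing notes, which name the build TAIR10; the positions in the WS tables are not those of TAIR10 and none is printed. The deposited tables list called loci only, with a pooled FPKM per group, a log2 fold change, the test statistic (a score), p-values and q-values by the authors' Cuffdiff. The deposited log2 fold change runs 4 over 8 days and was turned here. There is no value per library, so the depth of each library is unknown, and neither an SD nor a refit could be had. The spread among the 4 libraries of a group enters only through the authors' test. The labels call the pools of roots biological replicates.

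The number of loci tested was computed from the q-value, the p-value and its rank. Gene names and transcript lengths were matched by locus identifier to the RefSeq annotation TAIR10.1, for 1013 of 1015 single-gene loci. Analyses used Python 3 with pandas, numpy and scipy. The difference test was tested on simulated data with normal noise drawn from the implied errors themselves. That simulation cannot show whether the implied errors are right. Genes were named by fixed rules: the 12 largest changes each way among single genes above 0 FPKM at both ages and at least 5 FPKM at the higher age, the 5 highest levels at each age, up to 6 called members a list, list members at 0 FPKM, and the 10 smallest p-values per pair of tables; members beyond 6 were added where a list is given in full. The members and gene lists were chosen with earlier results of these data known. Alternatives were another q-value, fold, level, length or locus filter, a pseudocount of 1 FPKM, another scaling and larger errors. No column of values per sample was found in the files. Called members of the auxin and of the gibberellin, ethylene and brassinosteroid lists that are counted but not named are not reported here.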

Additional observations from a re-analysis of the deposited data

Results flagged for a closer look

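The difference of the age change between ground WS and flight WS roots passed the test for 6 genes, each given as ground minus flight on the log2 scale: MIR158b at 6.82, TCH3 at 2.32, AT1G65500 at 1.68, AT5G38020 at 1.49, AT5G33355 at -2.85 and AT1G34047 at -2.90. Between ground WS and ground Col-0 roots it passed for 2 genes, GASA5 at 1.45 and AT2G04800 at -3.62. MIR158b and TCH3 in the first pair and AT2G04800 in the second changed in opposite directions. With no value per library, no sample could be looked at for a gap to the rest of its group.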

How the results depend on the processing

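No paired analysis was possible because the deposited tables hold one pooled value per group, and for the same reason no library could be left out in turn. Loci higher and lower at 8 days numbered 514 and 590 as deposited, 291 and 303 at a q-value of 0.01 or less, 202 and 306 with at least a 2-fold change, and 164 and 243 with a pseudocount of 1 FPKM and at least a 2-fold change; among transcripts of 800 to under 2500 nt 330 were lower. Called list members higher and lower were 49 and 82 as deposited, 32 and 51 at a q-value of 0.01 or less, 27 and 44 with at least a 2-fold change, and 23 and 39 with the pseudocount. The filter on level moved none of these 4 totals by over 1.5 times, and the filter on loci of a single gene moved neither total of loci by as much. List members were counted on loci of a single gene from the start, so that filter could not move their totals. Within single lists the level filter left 1 of 3 lower clock genes, 1 of 2 lower triterpene genes, 1 of 2 lower abscisic acid, cold and drought genes and no lower gene on the light signalling, jasmonate, nitrogen and MADS-box lists, where 1 each had been called. The scaling of the flight tables adds 0.16 to every log2 change, less than the smallest called change of 0.37, so it could turn no sign and tests nothing. Higher minus lower members turned to 1 for abscisic acid, cold and drought at a q-value of 0.01 or less and with the pseudocount, and to 1 for gibberellin, ethylene and brassinosteroid with at least a 2-fold change and with the pseudocount. With errors 1.5 times as large 0 genes differed from flight WS roots and 0 from ground Col-0 roots by the same normal test, against 10 and 28 at an unadjusted p under 0.05 with the errors as implied; among transcripts of 800 to under 2500 nt the numbers were 0 and 1, where 4 of the 6 genes and 1 of the 2 have shorter transcripts and could not enter. The share of loci higher at 8 days was 30.7% for transcripts of 2000 nt or more, a wider class than 4000 nt or more; the other length shares moved by under 10 percentage points.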

Other observations

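The following genes were picked after their values were seen. Regulators of the vascular cambium were higher at 8 days in the authors' deposited table: WOX4, which maintains cambial cells, had 35.5 FPKM at 8 days and 8.91 FPKM at 4 days (2.00 ± 0.47), and ANT had 15.8 FPKM at 8 days and 6.62 FPKM at 4 days (1.26 ± 0.41). The MYB genes MYB68 and MYB84 rose by 1.09 ± 0.49 and 1.26 ± 0.67. The relatives of FLC that were called, MAF4 and MAF5, fell to 0.72 and 0.54 FPKM at 8 days, against 4.32 and 3.64 FPKM at 4 days (-2.58 ± 1.54 and -2.75 ± 1.37). LRL3, a bHLH factor of root hair growth, had 27.1 FPKM at 8 days and 54.7 FPKM at 4 days (-1.01 ± 0.36). GOX1, a glycolate oxidase of photorespiration, fell to 0.51 FPKM at 8 days, against 4.59 FPKM at 4 days (-3.17 ± 1.60).

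Among genes grouped by annotated product, 4 of 27 berberine bridge enzyme-like genes rose (14.8%, against 2.85% of all loci tested) and none fell, with a median change of 2.01 in the authors' deposited table. Of 49 MLP-like or polyketide cyclase genes 7 rose (14.3%) and 3 fell (6.12%), and the highest of those named here, AT4G23670, had 1727 FPKM at 8 days and 659 FPKM at 4 days (1.39 ± 0.26). AT3G26460 had 819 FPKM at 8 days and 165 FPKM at 4 days (2.31 ± 0.88), and MLP328 had 1239 FPKM at 8 days and 461 FPKM at 4 days (1.43 ± 0.29). Of 56 extensin genes 4 rose (7.14%) and 9 fell (16.1%, against 3.27% of all loci tested). Of 113 annotated defensin-like genes 1 rose (0.885%) and 4 fell (3.54%), beside 2.85% and 3.27% of all loci tested. How many genes of each family were tested is not known. None of these family shares is on the same base as the shares of loci tested.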
